A study of Mus musculus with 28 samples.

Results

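The expression of 9 genes of vitamin A (retinoid) metabolism and signalling was followed through the healing of a skin wound. The genes, Rbp4, Stra6, Dhrs9, Aldh1a1, Aldh1a2, Aldh1a3, Crabp2, Rarb and Rarg, were taken by name from the deposited gene counts. All 9 were among its 29068 gene symbols and among the 18107 that passed the filter on low counts. The RNA came from wound tissue of MLKL+/+ mice (C57BL/6J wild type, the strain that served as the control of an MLKL knockout in the same study), with no treatment other than the wound. A full-thickness excisional punch wound was made on the shaved back, and the site was taken with its scab and epithelial margins on days 0, 3, 5, 7, 10, 12 and 14, with 4 libraries a day and 28 in all. The mice were 8 weeks old by the study's methods. Day 0 is the reference of the comparisons below, as in the labels. The study's text names no day 0, and its first time point is day 1, the day of the injury, which is taken here to be day 0 of the labels without a source that says so. Which libraries, if any, shared an animal was not stated in the sources used here, so p-values measure the spread between these libraries, which may be in part technical.

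Retinol (vitamin A) travels in blood bound to RBP4, and STRA6 is a membrane receptor that takes it up. Dehydrogenases such as DHRS9 oxidise retinol to retinaldehyde, and the ALDH1A enzymes oxidise retinaldehyde to retinoic acid, a step that is not reversed in the cell. CRABP2 carries retinoic acid to the nucleus, where the retinoic acid receptors, among them RARB and RARG, bind DNA as partners of RXR proteins. In skin, retinoic acid is known for its part in keratinocyte differentiation, sebaceous gland activity and the hair cycle, and CYP26 enzymes break it down.

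The libraries held between 36706513 and 40655764 counts on genes (median 39499595), so depth differed little between days. Levels per library are given below as CPM (read counts scaled to a common library total, with TMM factors of 0.929 to 1.09 that adjust for composition). The 4 day 0 libraries were less alike than those of any later day, with a common biological coefficient of variation of 26.5% on day 0 and between 5.77% and 10.8% on the later days. The edgeR test below uses 1 spread per gene for all 7 days, which understates that of day 0 where it was larger. Its p-values against day 0 can then be too small. Keratinocyte markers were present in every library (summed level of 6 basal markers 3081 to 8174 CPM), and the 6 hepatocyte markers summed to at most 5.15 CPM. Among the 4 day 0 libraries the 8 hair follicle markers ranged from 256 to 2149.9 CPM and the 6 fibroblast markers from 10701 to 39552. Skeletal muscle markers (6 genes) summed to 17401 to 29486 CPM on day 0 and to 3827 to 9903 on the later days. All 6 were called lower on each later day, so the day 0 tissue differed in its make-up. The part of this in the changes against day 0 was not tested. With library totals alone in place of these factors, the median log2 fold change of all tested genes moved by 0.14 on day 12 and by 0.13 on day 14, and the share of higher among all called genes moved from 45.8% to 67.4% on day 12 and from 45% to 56.2% on day 14.

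All 9 genes changed within the wound. Dhrs9 stood above its day 0 level at all 6 later times, and Aldh1a1 below. Stra6 fell on days 3 and 5 and rose on days 7 to 14, and Aldh1a3 rose most on days 12 and 14. Rbp4 and Rarg fell early, and no longer differed from day 0 by the test from day 7 and day 12 on. Crabp2 moved least, with a highest day mean 1.81-fold above its lowest, and Rarg was close at 1.87-fold. That ratio had a median of 2.04 over all tested genes and was 52.0 for Stra6.

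**Figure D1:**
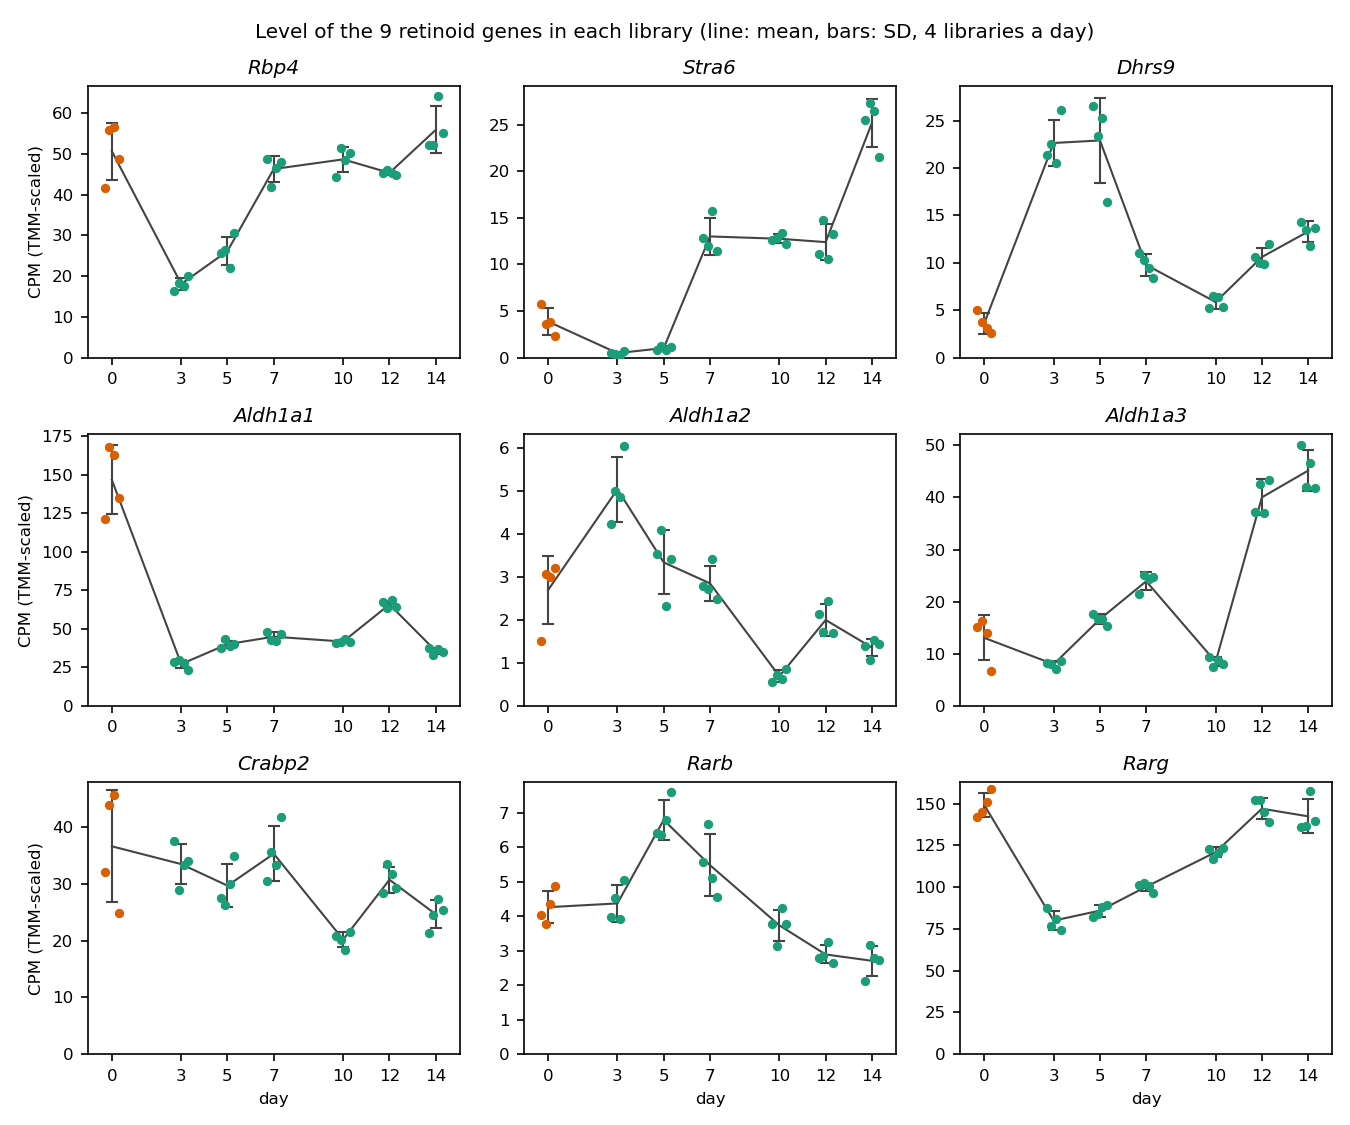
CPM (TMM-scaled, linear axis from 0) of each of the 9 genes by day. Each point is 1 library (orange for day 0, green for later days), the line joins day means and bars are the SD of 4 libraries. The day means of Stra6 run from 0.485 CPM on day 3 to 25.2 on day 14, and those of Crabp2 from 20.2 on day 10 to 36.7 on day 0.

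A gene was called changed at a Benjamini-Hochberg adjusted p under 0.05 in edgeR's quasi-likelihood test, adjusted over all 18107 genes. Against day 0, 7 of the 9 were called on day 3 (2 higher, 5 lower), when 66.6% of all tested genes were (31.8% higher and 34.8% lower). The day 5 count was 7 (3 higher, 4 lower) beside 59.5% of all genes (29% higher and 30.6% lower), and that of day 7 was 6 (4 higher, 2 lower) beside 50.4% (25.6% higher and 24.8% lower). It was 7 for day 10 (2 higher, 5 lower) beside 50.4% (23.5% higher and 26.9% lower), 5 for day 12 (3 higher, 2 lower) beside 47.3% (21.7% higher and 25.6% lower) and 7 for day 14 (3 higher, 4 lower) beside 62.7% (28.2% higher and 34.5% lower). The 4 libraries of a day lay wholly above or below those of day 0 for 6, 6, 5, 6, 5 and 5 of the 9 genes in the order of the days, and for 56.8%, 46.1%, 39.2%, 41.4%, 38.7% and 50.7% of all tested genes. With so many genes changing, calls alone do not set these 9 apart, and sizes and courses are given below. By the study's criteria (an absolute log2 fold change above 1.5 with an unadjusted P below 0.05) the counts in the same order were 3, 3, 2, 3, 3 and 4, where 18.9%, 13.9%, 9.4%, 9.47%, 7.39% and 14% of all genes met them. The median log2 fold change of the 9 genes was -0.71 on day 3 and -0.067 on day 14, beside -0.032 and -0.056 over all tested genes. All 6 comparisons use the same 4 day 0 libraries. A joint test among days 3 to 14, whose contrast leaves the day 0 libraries out, called all 9 genes and 85.1% of all tested genes.

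Levels of different genes were compared per length, by the authors' FPKM (fragments scaled by gene length and library size). On day 0 the most abundant were Aldh1a1 (47.5 ± 7.36 FPKM, SD, n = 4), Rarg (42.9 ± 2.27), Crabp2 (39.8 ± 10.8) and Rbp4 (38.2 ± 5.41), whose neighbours in this order differed by less than the larger SD of the pair. Aldh1a3 followed at 3.75 ± 1.24 FPKM. The lowest were Dhrs9 (1.25 ± 0.366), Aldh1a2 (1.16 ± 0.347), Rarb (1.10 ± 0.123) and Stra6 (0.862 ± 0.310), again with neighbours within the larger SD of the pair. On day 14 the order was Rbp4 (45.9 ± 3.62 FPKM), Rarg (44.6 ± 2.13), Crabp2 (29.2 ± 2.68), Aldh1a3 (14.1 ± 1.02), Aldh1a1 (12.6 ± 0.503), Stra6 (6.13 ± 0.604), Dhrs9 (5.05 ± 0.517), Rarb (0.766 ± 0.130) and Aldh1a2 (0.638 ± 0.0848). There the neighbours Rbp4 and Rarg, and Rarb and Aldh1a2, differed by less than the larger SD.

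**Figure D2:**
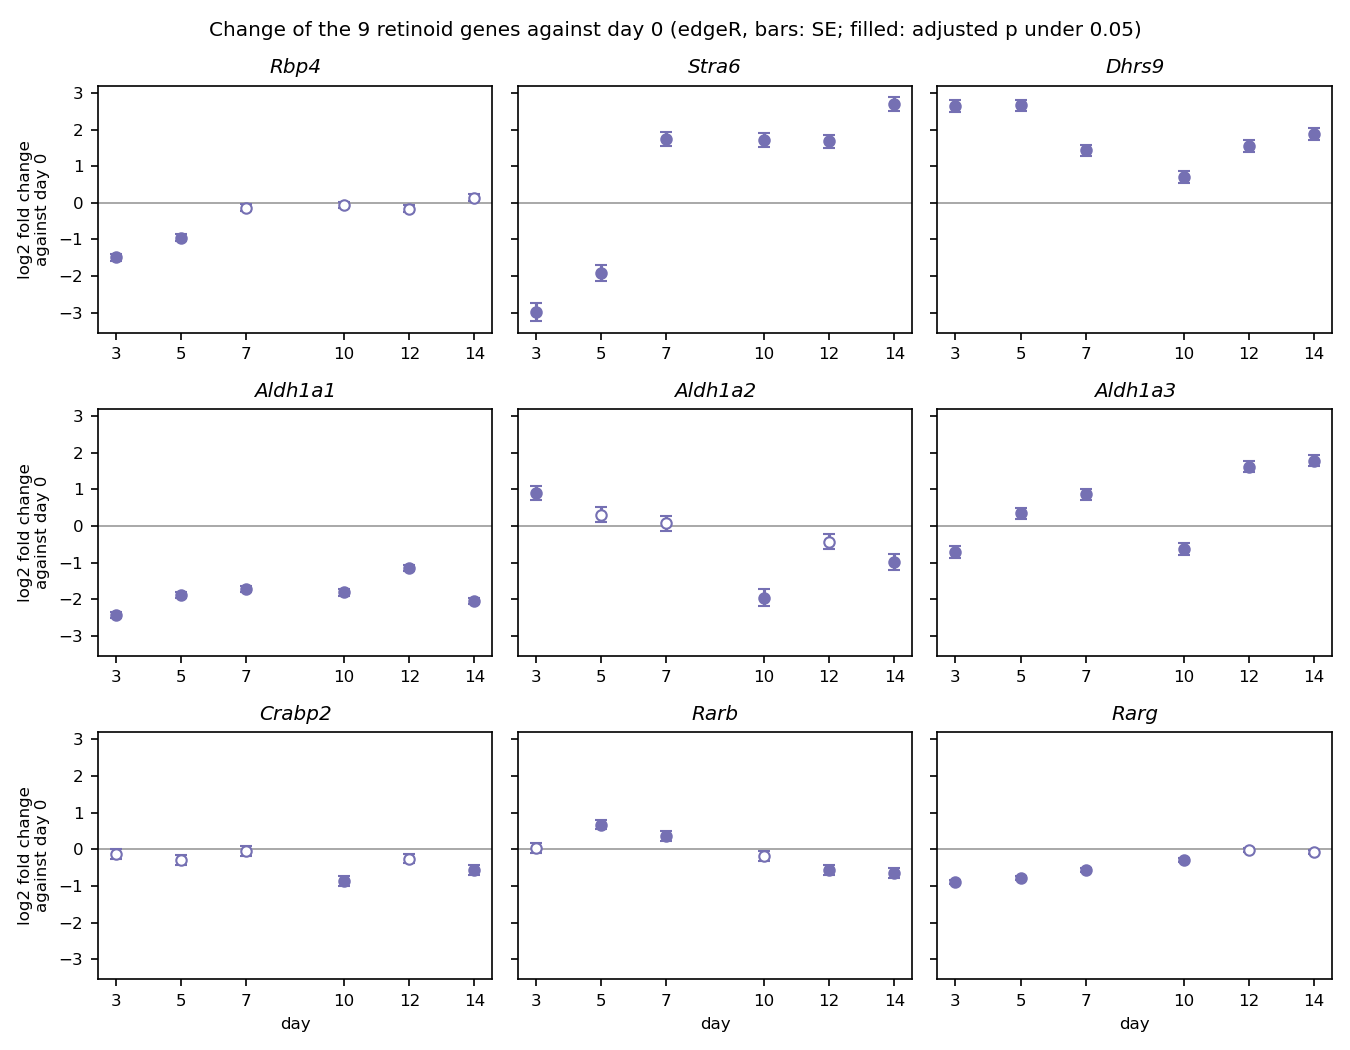
Log2 fold change against day 0 by day for the 9 genes (edgeR, bars are the SE of the fit on 28 libraries). Filled points passed an adjusted p of 0.05. Dhrs9 is above 0 and Aldh1a1 below 0 on all 6 days, and Stra6 moves from -2.99 on day 3 to 2.70 on day 14.

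Rbp4 encodes the plasma carrier of retinol (GRCm38 chr19:38116629-38125281, minus strand). Its 4 day 0 libraries held 41.7, 55.9, 56.5 and 48.7 CPM, those of day 3 held 16.4, 18.3, 17.5 and 20.1 and those of day 5 held 25.7, 26.4, 21.9 and 30.6. Every library of days 3 and 5 lay below every day 0 library. Rbp4 fell by 1.49 on the log2 scale on day 3 (SE 0.10, edgeR adjusted p = 1.31e-13) and by 0.95 on day 5 (adjusted p = 1.10e-09). The exact two-sided permutation test gave p = 0.0286 for each, the smallest that 4 libraries against 4 allow. In whole tissue, fewer cells that express a gene and less RNA per cell cannot be told apart, here and in the results that follow. From day 7 on, Rbp4 lay between 41.8 and 64.3 CPM and its libraries overlapped those of day 0 on each day. Its log2 fold changes for days 7, 10, 12 and 14 were -0.13, -0.059, -0.16 and 0.14, and none passed the test (adjusted p from 0.157 to 0.626). The values on days 7, 12 and 14 depended on single day 0 libraries. Without day 0 replicate 1 the change was -0.21, adjusted p = 0.0441 on day 7 and -0.23, adjusted p = 0.0358 on day 12, and on day 14 it was 0.24, adjusted p = 0.0374 without replicate 2 and 0.24, adjusted p = 0.0318 without replicate 3. With library totals alone the day 14 value was 0.27, adjusted p = 0.0111, and limma on log2(FPKM + pseudocount) called it as well in all 3 of its fits, at 0.27 with a pseudocount of 1 (adjusted p from 0.00881 to 0.0108).

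Stra6, the receptor for RBP4-bound retinol (GRCm38 chr9:58063788-58153996, plus strand), had the widest range of the 9 genes. Its day 0 libraries held 5.73, 3.61, 3.84 and 2.31 CPM, the day 3 libraries 0.486, 0.408, 0.328 and 0.718 and the day 5 libraries 0.862, 1.26, 0.790 and 1.19. In raw reads these were 83 to 217, 12 to 26 and 30 to 48 counts, so the day 3 level rests on few reads. The day 7 libraries held 12.9, 11.9, 15.8 and 11.5 CPM and those of day 14 25.5, 27.3, 26.5 and 21.5. No library of any later day overlapped the day 0 range. Against day 0, Stra6 was 7.96-fold lower on day 3 (log2 fold change -2.99 ± 0.25, SE, edgeR adjusted p = 1.98e-11) and 3.77-fold lower on day 5 (adjusted p = 1.57e-08). It was 3.35-fold, 3.29-fold and 3.2-fold higher on days 7, 10 and 12 and 6.49-fold higher on day 14 (2.70 ± 0.18, adjusted p = 8.45e-13). The rise from day 5 to day 7 was 12.7-fold (3.66 ± 0.21 on the log2 scale, adjusted p = 2.75e-13). Its 6 calls against day 0 stood under each alternative tried and with each library left out. Over the same days the summed level of the 8 hair follicle markers went from 15.3 to 23.8 CPM on day 5 to 1338 to 1799.8 on day 7. From day 7 to day 10 that sum fell to 274 to 323 CPM while Stra6 stayed at 12.2 to 13.4 CPM (-0.028 ± 0.17 on the log2 scale, adjusted p = 0.923). None of the 8 markers was at 0 throughout a day, and their part in the level of Stra6 was not tested.

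Dhrs9 encodes a retinol dehydrogenase, the step from retinol to retinaldehyde (GRCm38 chr2:69380445-69404533, plus strand). Its day 0 libraries held 5.07, 3.74, 3.09 and 2.59 CPM, against 21.4, 22.5, 20.5 and 26.1 for day 3, 26.5, 23.4, 25.3 and 16.4 for day 5 and 5.19, 6.54, 6.42 and 5.31 for day 10. All 24 later libraries lay above all 4 day 0 libraries. The gene rose 6.24-fold on day 3 (log2 fold change 2.64 ± 0.16, edgeR adjusted p = 3.68e-14) and 6.32-fold on day 5. It was then 2.70-fold above day 0 by day 7 and 1.62-fold by day 10 (adjusted p = 7.64e-04), and days 12 and 14 gave 2.93-fold and 3.67-fold. Its course thus had an early peak, a fall to day 10 and a later, smaller rise, and the steps day 7 against 5 (-1.23), day 10 against 7 (-0.74) and day 12 against 10 (0.86) each passed the test. Of all tested genes, 4.76% were called higher on each of the 6 days, as Dhrs9 was. Neutrophil and wound edge keratinocyte markers were also high at the first peak. For days 0, 3 and 14 the 6 neutrophil markers summed to 15.9 to 41.7, 4323 to 5464 and 14.8 to 18.5 CPM (1 of the 6 was at 0 on days 0 and 12), and the 5 wound edge keratinocyte markers to 471 to 714, 2589 to 3146 and 1492 to 1800.2 CPM. On day 14, when the neutrophil sum was no higher than on day 0, Dhrs9 was still at 11.7 to 14.4 CPM. The part of either cell type in the level of Dhrs9 was not tested.

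The ALDH1A genes encode the enzymes that make retinoic acid, and their 3 courses differed. Aldh1a1 fell and stayed low, Aldh1a2 had a small early peak and its lowest level on day 10, and Aldh1a3 rose late. Aldh1a1 lies at GRCm38 chr19:20492715-20643465, plus strand, Aldh1a2 at GRCm38 chr9:71215789-71296243, plus strand and Aldh1a3 at GRCm38 chr7:66390890-66427517, minus strand.

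Aldh1a1 held 121, 168, 163 and 135 CPM in the day 0 libraries, 28.4, 29.5, 27.6 and 23.0 in those of day 3 and 67.4, 63.2, 68.5 and 64.0 in those of day 12. The 24 later libraries, at 23.0 to 68.5 CPM, all lay below the day 0 libraries. The gene was 5.40-fold lower on day 3 (log2 fold change -2.43 ± 0.085, edgeR adjusted p = 3.56e-19), and 3.67-fold, 3.27-fold and 3.52-fold lower for days 5, 7 and 10. The fall was smallest at 2.23-fold for day 12 (adjusted p = 6.70e-12), and it was 4.12-fold for day 14. Of all tested genes, 9.76% were called lower on all 6 days. Within the wound Aldh1a1 rose from day 10 to day 12 (0.66, adjusted p = 2.24e-07) and fell from day 12 to day 14 (-0.89, adjusted p = 1.78e-09). Most sebaceous gland markers were also lower. Their sum over 7 genes ranged from 1074 to 1305 CPM on day 0 and from 235 to 331 on day 3, with 7 of 7 called lower on day 3. On day 14 the sum was 513 to 687, with 6 called lower and 1, Elovl3, called higher. From day 7 to day 10 the sum went from 359 to 427 CPM to 662 to 730. Over that step Aldh1a1 did not change by the test (-0.11, edgeR adjusted p = 0.351). On day 12, when Aldh1a1 had risen, the sebaceous sum was 533 to 706 CPM. None of the 7 was at 0 throughout a day, and their part in the fall of Aldh1a1 was not tested. Aldh1a1 has a close paralogue, Aldh1a7, and how reads shared by both were counted is not given in the sources used here. Aldh1a7 was not called lower on any day, with log2 fold changes from 0.11 on day 5, which did not pass the test, to 0.70 on day 7 (adjusted p = 1.11e-05).

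Aldh1a2, the enzyme known from the embryo and from dendritic cells, was the lowest of the 3 in mean FPKM (1.11 over the 28 libraries). Its day 0 libraries held 1.51, 3.06, 3.01 and 3.2 CPM, those of day 3 4.24, 5.00, 4.86 and 6.04 and those of day 10 0.554, 0.719, 0.614 and 0.869. The day 3 libraries all lay above and the day 10 libraries all below those of day 0. It rose 1.87-fold on day 3 (log2 fold change 0.90 ± 0.20, edgeR adjusted p = 2.89e-04), fell 3.89-fold on day 10 (-1.96 ± 0.23, adjusted p = 5.24e-08) and was 1.98-fold lower on day 14 (adjusted p = 2.27e-04), where 3 of 4 libraries lay below day 0. The exact permutation test gave p = 0.0571 for day 14. On days 5, 7 and 12 the log2 fold changes of Aldh1a2, 0.31, 0.082 and -0.43, did not pass the edgeR test. Replicate 1 of day 0 was 1.51 CPM, below the other 3. Without it, the day 12 value was -0.61, adjusted p = 0.00865, the day 5 value 0.12, adjusted p = 0.582, and the day 7 value was -0.12, adjusted p = 0.631. Markers of macrophages and dendritic cells changed over the same days. For days 0, 3 and 10 the 6 macrophage markers summed to 873 to 1380.1, 2202 to 2324 and 716 to 798 CPM (6 called higher on day 3, 1 higher and 5 lower on day 10), and the 7 dendritic cell markers to 741 to 1219, 683 to 768 and 282 to 303 CPM (3 higher and 3 lower on day 3, 2 higher and 4 lower on day 10). None of these 13 markers was at 0 throughout a day, and their part in the level of Aldh1a2 was not tested.

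Aldh1a3 held 15.1, 16.3, 14.0 and 6.70 CPM in the day 0 libraries, 37.1, 42.6, 36.9 and 43.3 in those of day 12 and 50, 42.1, 46.6 and 41.9 in those of day 14. The libraries of days 7, 12 and 14 all lay above those of day 0. On days 3 and 10 they held 8.18, 8.10, 7.10 and 8.56 and 9.45, 7.54, 8.87 and 7.94 CPM, above day 0 replicate 4 and below the other 3 day 0 libraries. Aldh1a3 rose 1.83-fold on day 7 (edgeR adjusted p = 1.97e-05), 3.06-fold on day 12 (log2 fold change 1.61 ± 0.15, adjusted p = 1.22e-09) and 3.45-fold on day 14 (1.79 ± 0.15, adjusted p = 5.29e-11). It was lower on days 3 (-0.71, adjusted p = 2.51e-04) and 10 (-0.63, adjusted p = 0.00128), and the latter call was lost in edgeR on the 8 libraries of the comparison alone (adjusted p = 0.0714). The exact permutation test gave p = 0.143 for day 3 and for day 10. The day 5 value of 0.35 ± 0.15 only just passed (adjusted p = 0.0477, exact permutation test p = 0.0571). It was lost without day 0 replicate 3 (0.38, adjusted p = 0.0507), without day 0 replicate 4 (0.15, adjusted p = 0.166) and without day 5 replicate 1, 2 or 3 (adjusted p = 0.102, 0.0741 and 0.0654), and under 6 of the other settings tried (adjusted p from 0.0571 to 0.277). Within the wound it fell 2.83-fold from day 7 to day 10 and rose 4.73-fold from day 10 to day 12 (adjusted p = 4.46e-12). Hair follicle markers changed over the same days, with median sums of 704, 13.2, 22.4, 1640.2, 305, 5034 and 3908 CPM from day 0 through day 14. All 8 were called lower on days 3 and 5 and higher on days 12 and 14. From day 3 to day 5 the sum stayed low, at 15.3 to 23.8 CPM on day 5, while Aldh1a3 rose 2.08-fold (edgeR adjusted p = 8.76e-06). The part of hair follicles in the level of Aldh1a3 was not tested.

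**Figure D3:**
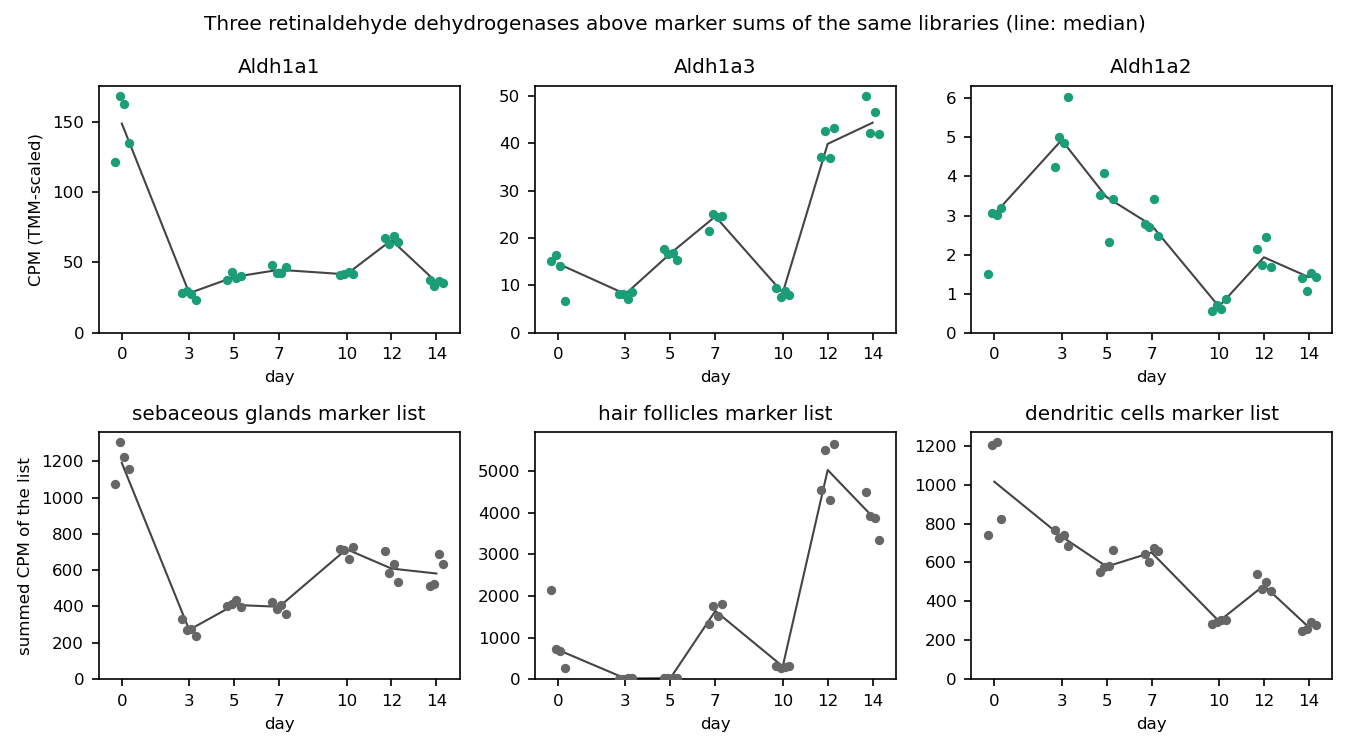
Aldh1a1, Aldh1a3 and Aldh1a2 (top, CPM) above the summed CPM of the sebaceous gland, hair follicle and dendritic cell marker lists (bottom) in the same 28 libraries by day. Points are libraries and lines join day medians. The hair follicle sum falls to 13.2 on day 3 and reaches 5034 on day 12, and the Aldh1a3 libraries lie at 7.10 to 8.56 and 36.9 to 43.3 CPM on those days. On day 5 the hair follicle sums lie at 15.3 to 23.8 and the Aldh1a3 libraries at 15.4 to 17.7 CPM.

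The make-up of the ALDH1A group by FPKM therefore changed over the 14 days. Of the summed FPKM of the 3 genes, Aldh1a1 held 90.6% ± 1.77 (SD, n = 4) at day 0, 66.2% ± 4.43 at day 3, 83.2% ± 1.13 at day 10 and 46.0% ± 1.01 at day 14. Aldh1a3 went from 7.16% ± 2.37 on day 0 to 51.7% ± 1.15 on day 14. Its FPKM was 0.0442 to 0.111 times that of Aldh1a1 in the day 0 libraries and 1.06 to 1.18 times in those of day 14. Aldh1a2 held its largest share on day 3, 16.5% ± 3.07, beside 2.21% ± 0.604 on day 0. The sum itself was 52.4 ± 8.12, 12.7 ± 0.705, 37.2 ± 0.658 and 27.4 ± 1.5 FPKM for days 0, 3, 12 and 14. These shares are a description, with no test.

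**Figure D4:**
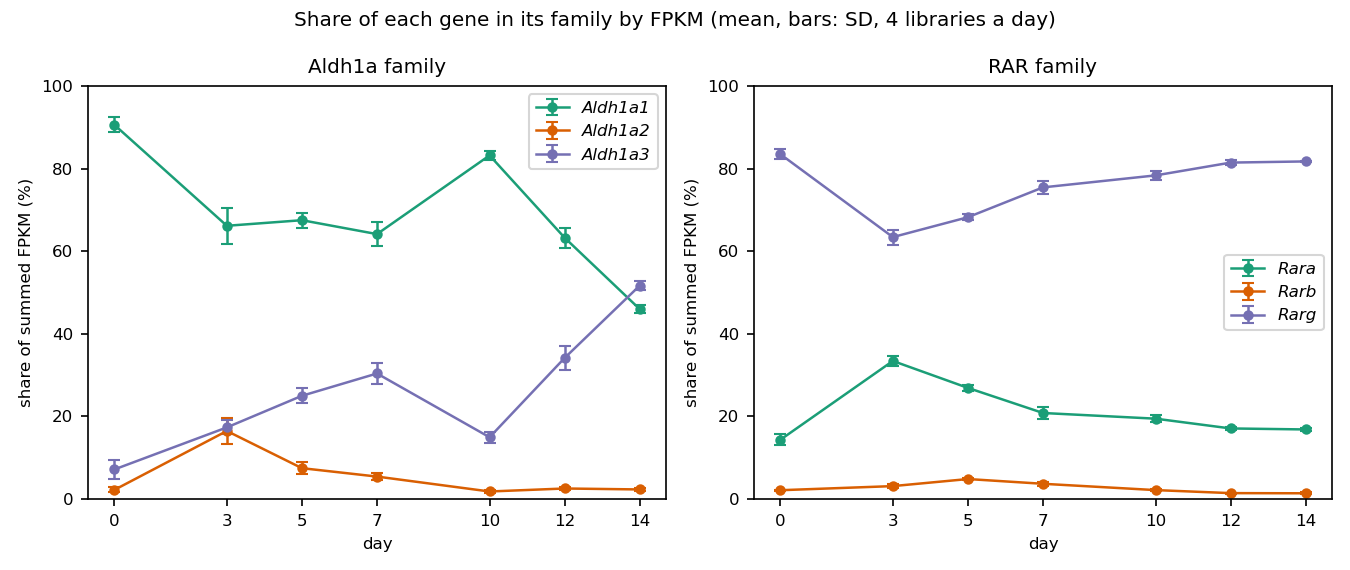
Share (%) of each gene in the summed FPKM of the ALDH1A genes (left) and of the retinoic acid receptors (right) by day. Points are means and bars the SD of 4 libraries. Aldh1a1 falls from 90.6% ± 1.77 to 46.0% ± 1.01, and Rarg has its lowest share, 63.4% ± 1.79, on day 3.

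Crabp2, the carrier that passes retinoic acid to its receptors (GRCm38 chr3:87948666-87953376, plus strand), changed little. Its day 0 libraries were spread, at 32.1, 43.9, 45.7 and 25.0 CPM, and those of day 10 held 20.9, 20.1, 18.4 and 21.5. Of the 6 later days, only the day 10 libraries lay wholly outside the day 0 range, below it. Crabp2 fell by 0.86 on the log2 scale on day 10 (SE 0.14, edgeR adjusted p = 6.47e-06) and by 0.57 on day 14 (adjusted p = 5.87e-04). The exact permutation test gave p = 0.0286 for day 10 and 0.0857 for day 14. Crabp2 values on days 3, 5, 7 and 12 (-0.13, -0.30, -0.053 and -0.25) did not pass the edgeR test. The day 5 value was called without day 0 replicate 4 (-0.44, adjusted p = 0.00224), without day 0 replicate 1 (-0.35, adjusted p = 0.0357) and without day 5 replicate 4 (-0.39, adjusted p = 0.0210), and the day 12 value without day 0 replicate 4 (-0.38, adjusted p = 0.00877). Upper quartile factors, library totals alone, a stricter count filter and DESeq2 on all libraries called the day 5 value too (adjusted p from 0.0300 to 0.0457). The other cellular carrier, Crabp1, rose 4.68-fold on day 7 and 5.15-fold on day 10 (adjusted p = 1.90e-14), the day on which Crabp2 was lowest. By day 14 Crabp1 was 1.90-fold lower than on day 0 (adjusted p = 5.29e-07).

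Of the receptors, Rarb was higher on days 5 and 7 and lower on days 12 and 14, and Rarg was lower from day 3 to day 10. Rarb is the receptor gene known to be switched on by retinoic acid itself, through a direct repeat in its promoter (GRCm38 chr14:16430839-16819156, minus strand for the gene). RefSeq promoter windows (250 bases before to 50 after a start, GRCm38.p6) were at hand for 7 of the 9 genes, 13 windows in all, and for Crabp2 and Aldh1a3 none was used. The core motif was taken as AGGTCA, with G allowed as the first base and T as the third, on either strand, and a direct repeat as a pair of such motifs on the same strand with 5 bases between them. A window of Rarb held the repeat and no window of the other 6 genes did, while 32 of all 32851 windows (0.0974%) held it. The core motif alone, which each repeat contains, was in 6 of the 13 windows of these genes and in 43.7% of all windows. Among the other retinoid genes Cyp26a1, which encodes a retinoic acid degrading enzyme, held the repeat as well, on the other strand. The last 100 bases before each start are shown because they hold these repeats, each 5′ to 3′ on the strand of its gene, with the paired motifs of the repeat in capitals.
Rarb promoter (GRCm38.p6 chr14:16575477-16575576, minus strand): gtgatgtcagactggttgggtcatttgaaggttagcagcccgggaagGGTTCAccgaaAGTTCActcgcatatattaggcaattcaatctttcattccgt
Cyp26a1 promoter (GRCm38.p6 chr19:37697708-37697807, plus strand): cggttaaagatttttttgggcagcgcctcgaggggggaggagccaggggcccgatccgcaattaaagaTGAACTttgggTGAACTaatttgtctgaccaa
The Rarb repeat spans positions -53 to -37 from the start and that of Cyp26a1 -32 to -16. A match describes the sequence and not binding in these samples. Cyp26a1 itself had at most 6 counts in any library and was not tested.

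Rarb held 4.04, 3.79, 4.36 and 4.87 CPM in the day 0 libraries, 6.40, 6.37, 6.80 and 7.61 in those of day 5 and 2.13, 3.17, 2.80 and 2.73 in those of day 14. The day 5 libraries all lay above and the libraries of days 12 and 14 all below those of day 0. Rarb rose 1.59-fold on day 5 (log2 fold change 0.67 ± 0.13, edgeR adjusted p = 8.88e-05) and fell 1.47-fold on day 12 (adjusted p = 0.00139) and 1.57-fold on day 14 (adjusted p = 1.74e-04). The day 7 value, 0.36 ± 0.13 (adjusted p = 0.0254), was no longer called without day 0 replicate 1 (0.34, adjusted p = 0.0566), day 0 replicate 2 (0.31, adjusted p = 0.0752) or day 7 replicate 2 (0.26, adjusted p = 0.130), with no filter, or in edgeR or DESeq2 on 8 libraries (adjusted p from 0.0574 to 0.114). The exact permutation test gave p = 0.0571 for day 7. On days 3 and 10 the changes of Rarb, 0.037 and -0.19, did not pass the edgeR test. Its counts were low, at 88 to 281 per library. In the GENCODE annotation 34.1% of the exon bases of Rarb lie opposite exons of Top2b, a topoisomerase gene on the plus strand that was far more abundant (135 CPM on day 0), and whether the counting used strand is not given in the sources used here. Without strand, reads from the shared bases cannot be told apart. Top2b changed by 0.059 on the log2 scale on day 5 (adjusted p = 0.438) and rose on days 12 and 14 (0.61 and 0.66, adjusted p = 1.12e-08 and 6.93e-10), when Rarb fell. The exons of the other 8 genes shared no bases with another gene's exons in that annotation.

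Rarg, the main retinoic acid receptor of epidermis (GRCm38 chr15:102234938-102257517, minus strand), was the most deeply counted of the 9 genes. Its day 0 libraries held 142, 145, 151 and 158 CPM, those of day 3 87.8, 76.5, 81.0 and 74.4 and those of day 10 123, 117, 120.5 and 124. All libraries of days 3, 5, 7 and 10 lay below those of day 0, and the level came back step by step. Rarg fell by 0.90 on the log2 scale on day 3 (SE 0.056, edgeR adjusted p = 5.80e-14), by 0.80 by day 5, by 0.57 by day 7 and by 0.30 by day 10 (adjusted p = 4.50e-05). On days 12 and 14 its values of -0.021 and -0.067 did not pass the test, and their sign changed with the scaling. With library totals alone they were 0.12 and 0.058. The rises from day 5 to 7 (0.22), day 7 to 10 (0.27) and day 10 to 12 (0.28) each passed. The 6 markers of suprabasal keratinocytes summed to 3478 to 3886, 1094 to 1502, 3155 to 3530 and 1142 to 1601 CPM for days 0, 3, 12 and 14, so that this sum and Rarg were both low on day 3 and differed on day 14. On days 7 and 10 this sum was 3041 to 3504 and 1999 to 2389 CPM, while Rarg was lower than on day 0 by 0.57 and 0.30. Of the 6 markers, 2 were called higher and 4 lower on day 7, and likewise on day 10. The part of suprabasal keratinocytes in the level of Rarg was not tested. For days 0, 3 and 14, Rarg held 83.5% ± 1.30, 63.4% ± 1.79 and 81.7% ± 0.118 of the summed FPKM of the 3 receptor genes. Rara, the broadly expressed receptor, held 14.3% ± 1.37, 33.4% ± 1.32 and 16.9% ± 0.342, and Rarb never more than 4.85% ± 0.239 (day 5).

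Steps between successive days were taken from the same fit, so the contrast leaves the day 0 libraries out while their spread enters the estimate of the variance. From day 3 to day 5, 6 of the 9 genes were called (5 higher, 1 lower), where 24.3% of all tested genes were (12.9% higher and 11.4% lower). The next step, to day 7, gave 5 (4 higher, 1 lower) beside 28.5% of all (13.9% higher and 14.6% lower), and the step to day 10 gave 6 (1 higher, 5 lower) beside 32.3% (14.3% higher and 18% lower). From day 10 to day 12 the count was 7 (6 higher, 1 lower) beside 39.4% (18.7% higher and 20.7% lower), and from day 12 to day 14 it was 4 (2 higher, 2 lower) beside 45.2% (19.9% higher and 25.3% lower). This last count was 7 when DESeq2 or edgeR was run on the 8 libraries of days 12 and 14 alone. In an edgeR fit of the 24 libraries of days 3 to 14, added after the data were seen, the 5 steps gave 6, 7, 6, 7 and 6 of the 9 genes, each call of a step above was kept, and the joint test called all 9. The study's criteria gave 0, 1, 2, 2 and 0 of the 9 genes in these steps, beside 2.91%, 3.66%, 4.61%, 6.01% and 3.57% of all. On day 10 against day 7, Aldh1a2, Aldh1a3, Crabp2, Dhrs9 and Rarb fell and Rarg rose. From day 10 to day 12 the first 4 of these rose again, together with Aldh1a1 and Rarg. Aldh1a2, for example, fell by 2.04 and then rose by 1.53 on the log2 scale (edgeR adjusted p = 8.26e-08 and 4.92e-06), and Crabp2 fell by 0.81 and rose by 0.61 (adjusted p = 3.73e-05 and 7.37e-04). Both steps share the day 10 libraries, so a fall and a rise around day 10 are not independent of each other. The remaining call from day 10 to day 12, Rarb at -0.37 (adjusted p = 0.0338), was lost without day 10 replicate 1, 3 or 4 or day 12 replicate 1, 2 or 4, with values from -0.43 to -0.30 over the 8 libraries left out in turn. It was also lost with library totals alone, with no filter and in limma (adjusted p from 0.0598 to 0.109). Some smaller calls also rested on 1 library. Rbp4 from day 12 to day 14 (0.30) was 0.23, adjusted p = 0.0539, without day 14 replicate 3. Aldh1a2 from day 3 to day 5 (-0.59) was lost without day 3 replicate 4 (-0.53, adjusted p = 0.0753) or day 5 replicate 3 (-0.49, adjusted p = 0.0886), and from day 12 to day 14 (-0.56) it was lost without day 12 replicate 1 or 3 or day 14 replicate 1 or 2 (adjusted p from 0.0583 to 0.137) and with DESeq2 size factors, upper quartile factors, no filter or Xist as a covariate (adjusted p from 0.0514 to 0.0804).

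A further 54 genes of the retinoid pathway, set in 5 lists, gave a background of their own. Of these, 49 passed the filter, and in the order of the 6 days 40, 36, 34, 31, 31 and 38 of the 49 were called, beside 66.6%, 59.5%, 50.4%, 50.4%, 47.3% and 62.7% of all tested genes. Those called lower outnumbered those called higher on each day, from 21 against 19 on day 3 to 23 against 15 on day 14, and over all tested genes lower calls also outnumbered higher ones on 5 of the 6 days. The enzymes that turn retinol into retinaldehyde and back stood mostly on the lower side, while on each day more transport and storage genes were called higher than lower.

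**Figure D5:**
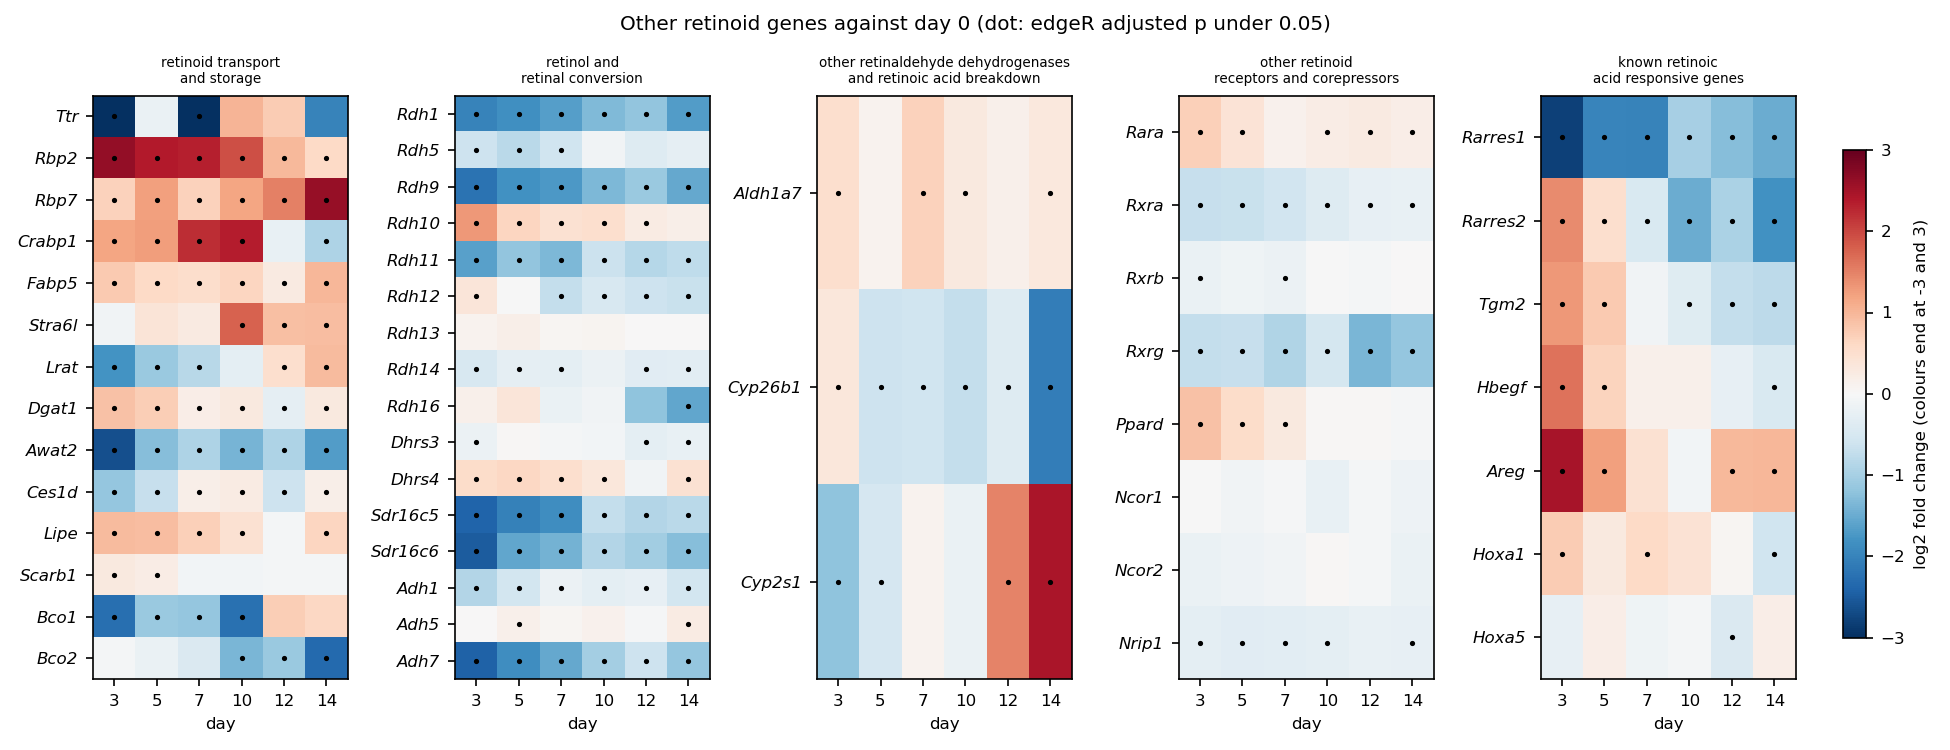
Log2 fold change against day 0 (colour, from -3 to 3) of 48 of the 49 tested other retinoid genes by list and day. Dots mark an edgeR adjusted p under 0.05. Rdh1, Rdh9, Sdr16c5, Sdr16c6 and Adh7 are lower on all 6 days and Rbp2 is higher on all 6.

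Of 16 tested retinol and retinaldehyde converting enzymes, 10, 9, 10, 8, 10 and 11 were lower and 3, 3, 2, 2, 1 and 2 higher in the order of the 6 days. Of all tested genes, 34.8%, 30.6%, 24.8%, 26.9%, 25.6% and 34.5% were lower and 31.8%, 29%, 25.6%, 23.5%, 21.7% and 28.2% higher. The median log2 fold change of the 16 was -0.55 on day 3. Sdr16c6 and Sdr16c5, retinol dehydrogenases of the SDR16C family, fell 5.68-fold and 5.31-fold on day 3 (edgeR adjusted p = 2.57e-15 and 1.23e-16), and Adh7, an alcohol dehydrogenase that also oxidises retinol, fell 5.34-fold. These stood opposite to Dhrs9, which rose 6.24-fold on that day. Rdh9 fell 4.68-fold on day 3 and 2.88-fold on day 14, and it and Rdh1 belong to a group of near-identical genes between which reads could be split. Rdh10, the main retinol dehydrogenase of the embryo, was chosen after its values were seen and rose 2.45-fold on day 3 (adjusted p = 3.72e-13). From day 0 to day 3 its FPKM went from 5.09 ± 0.213 to 12.0 ± 0.997, and that of Dhrs9 from 1.25 ± 0.366 to 7.55 ± 0.767.

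Of 15 transport and storage genes, 7 were higher and 5 lower on day 3 and 9 were higher and 3 lower on day 14, where 31.8% and 34.8% of all tested genes (day 3) and 28.2% and 34.5% (day 14) were, so that the share lower on day 3 was near that of all genes. Rbp2, a cellular retinol binding protein, rose 6.26-fold on day 3 (adjusted p = 3.18e-16) and was 3.81-fold above day 0 on day 10. Its relative Rbp7 had its largest rise late, 6.15-fold on day 14 (edgeR adjusted p = 2.33e-13). Lrat, which esterifies retinol for storage, fell 3.45-fold on day 3 (adjusted p = 9.21e-10) and was 1.93-fold higher than on day 0 on day 14 (adjusted p = 9.65e-06). Awat2, an acyltransferase that makes wax and retinyl esters and is also a sebaceous gland marker of the list above, fell 6.17-fold on day 3 and was still 3.18-fold lower on day 14. Ttr, the plasma partner of RBP4 and a hepatocyte marker, had at most 13 counts in any library.

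Of the remaining lists, 3 of 6 genes for retinaldehyde oxidation and retinoic acid breakdown passed the filter. Cyp26b1, a retinoic acid degrading enzyme, rose by 0.34 on the log2 scale on day 3 (edgeR adjusted p = 0.00310), was lower from day 5 on and fell 4.21-fold on day 14 (adjusted p = 1.31e-15). Cyp2s1, another P450 reported to act on retinoic acid, fell 2.29-fold on day 3 and rose 2.79-fold on day 12 and 5.44-fold on day 14, so that on day 14 it and Cyp26b1 moved in opposite directions. Among 8 receptors and corepressors, 2 were higher and 4 lower on day 3 (all tested genes: 31.8% and 34.8%). Rara rose by 0.72 (adjusted p = 3.33e-10) on the day Rarg fell by 0.90. Rxra, the RXR partner of RARG in epidermis, fell by 0.69 on day 3 (adjusted p = 6.64e-10), and Rxrg fell by 1.37 on day 12. Of 11 tested genes known to respond to retinoic acid, 6 were higher and 3 lower on day 3 and 3 were higher and 7 lower on day 14. Beside the shares of all tested genes on these days (31.8% higher and 34.8% lower, then 28.2% and 34.5%), the 3 lower on day 3 and the 3 higher on day 14 were near the background. Rarres1 was 6.99-fold lower on day 3 and 2.80-fold lower on day 14. Rarres2, which encodes chemerin, went from 2.68-fold higher on day 3 to 3.51-fold lower on day 14, and Areg and Hbegf, ligands of the EGF receptor that retinoic acid can induce, rose 5.53-fold and 3.09-fold on day 3. The list moved both ways, and some of its genes, such as Cyp26a1, Cyp26b1, Dhrs3 and Lrat, are in the other lists as well.

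For each of the 9 genes, the tested genes with the most similar course were found by Pearson's r of log2 CPM over the 28 libraries, which share days, as a description. The closest to Aldh1a1 was Scd3 (r = 0.978), a sebaceous desaturase on the sebaceous gland list, then Cbx7 and Susd2. The closest to Aldh1a3 was Dnase1l2 (r = 0.969), then Car6 and Gm31562, a gene model that averaged 0.0682 CPM. Rarg was closest to Lratd1 (r = 0.978), Srd5a1 and Fzd7, Rbp4 to Tst (r = 0.959), Ppp1r1a and Pygb, and Stra6 to Efna2 (r = 0.961), Fzd2 and Sertad4. Dhrs9 was closest to Cpsf2 (r = 0.954), Ppp1r3b and Rnf149. The lower values belonged to Aldh1a2, with Sema4a (r = 0.936), Cbr2 and Ifih1, to Crabp2, with 4930438A08Rik (r = 0.913), Cd209e and Cd209a, and to Rarb, with Ano10 (r = 0.908), Pde2a and Serpina3g. Cd209a is on the dendritic cell marker list.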

How the data were processed

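RNA was extracted with TRIzol, and libraries were built with the VAHTS Universal V6 kit. For the 28 libraries the authors deposited raw counts per gene symbol and FPKM of the same symbols. Per the file's values, each deposited FPKM equals the count over a constant length and the library total (100% of values within 1%). The submitters' processing notes name fastp, R 3.2.0 and mm10. The aligner, counter, annotation and strand setting are not given in the sources used here.

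Counts were tested in R 4.3.3 with edgeR 4.0.16 (TMM, filterByExpr on the 7 days, glmQLFit and glmQLFTest, two-sided), with all 28 libraries in 1 fit, 21 residual degrees of freedom and no covariate. Adjustment was by Benjamini-Hochberg over 18107 genes. Log2 CPM used a prior count of 2. Exact permutation tests compared 4 libraries with 4 (smallest p 0.0286). A count of 0 allows up to 3 counts, for counting error only. The alternatives were other scalings and filters, DESeq2 1.42.0, limma 3.58.1 on log2(FPKM + pseudocount), fits on 8 libraries and (added after the data were seen) on the 24 of days 3 to 14, the replicate number as a block, Xist as a covariate, the study's criteria and each library left out. The study's methods state DESeq2 without a block, and edgeR took its place. On simulated counts for day 3 against day 0 with 200 genes changed by a log2 of 2, edgeR recovered 182 with 9 false calls among 17734 genes, DESeq2 182 with 25 among 17734, and limma 178 with 11 among 18107. The simulation gave each gene the same spread on all days. In the data day 0 was more spread, and 66.6% of genes were called on day 3. These false call counts therefore do not give the error rate of the data.

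The study used mice of both sexes, and all 28 libraries had 0 to 13 counts of Xist and at least 592 of each of 4 Y genes. Samples were grouped by the day in their titles. Positions are from GENCODE (GRCm38) and promoters from RefSeq (GRCm38.p6). The 9 genes, the lists and the tests were chosen with earlier results of these data known. From each list of other retinoid genes, those named in the text for a day were among its 4 called genes of largest change. That choice was made on that day, with any uncalled gene set beside them. Genes named under the colour plot of log2 fold changes by list and day were not all among those 4 on each day. Rdh1, for example, was not among them on day 3. For each of the 9 genes the 3 most similar courses were named. Of the other retinoid genes, 1 is counted in its lists but its values are not reported here. Rdh10, Top2b, Rarres2 on day 3, and Lrat and Crabp1 on day 14 were named after their values were seen.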

Additional observations from a re-analysis of the deposited data

Results flagged for a closer look

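Each of the 9 genes was checked on each of the 7 days for a library far from the other 3 on the log2 CPM scale (the gap to the nearest over the range, above Dixon's 95% critical value), 63 groups in all. Chance alone flags about 1 in 20 such groups, and 1 was found. Aldh1a2 on day 0 had a ratio of 0.917, with replicate 1 at 1.51 CPM (57 counts) and the other 3 at 3.01 to 3.2 CPM. Without that library, Aldh1a2 was 0.75, adjusted p = 7.33e-04 (log2 fold change, edgeR) on day 3 and -2.15, adjusted p = 1.12e-09 on day 10, so both calls stood.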

How the results depend on the processing

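The number of the 9 genes called against day 0 stayed within 1.5 times its value under all alternatives but the study's criteria, and over the libraries left out in turn it stayed at 7 for days 3 and 10 and varied between 6 and 8 (day 5), 5 and 6 (day 7), 5 and 7 (day 12) and 7 and 8 (day 14). The study's criteria, which ask for a larger change, gave 3, 3, 2, 3, 3 and 4 of the 9 genes, 14, 7, 8, 4, 1 and 9 of the other retinoid genes, and 3420, 2520, 1702, 1715, 1339 and 2531 of all genes (beside 12064, 10779, 9130, 9129, 8557 and 11352 by the adjusted p) on days 3, 5, 7, 10, 12 and 14. For the steps from day 3 to 5, 5 to 7, 7 to 10, 10 to 12 and 12 to 14 they gave 0, 1, 2, 2 and 0. DESeq2 and edgeR on the 8 libraries of day 14 against day 12 each called 7 of the 9 genes instead of 4, and the cause was not tested. Signs reversed only for values that had not passed the test. Rarb on day 3 was 0.037, and it was -0.054 with upper quartile factors, -0.020 with library totals alone, -0.011 in limma on log2(FPKM + 1), whether or not genes under a mean of 1 FPKM were left out, and -0.019 with a pseudocount of 0.1. In the same order of the last 3 settings, Rarg was 0.12, 0.12 and 0.12 on day 12, where both limma fits called it (adjusted p = 0.0395 and 0.0431), and 0.058, 0.057 and 0.058 on day 14, and 0.0029 in edgeR on 8 libraries. Rbp4 on day 10 was 0.0038 and 0.0041 in limma. With single libraries left out, the sign varied for some uncalled values, with ranges of -0.12 to 0.17 for Aldh1a2 and -0.20 to 0.072 for Crabp2 (both day 7), -0.014 to 0.16 for Rarb (day 3), and -0.038 to 0.026 and -0.12 to 0.041 for Rarg (days 12 and 14). FPKM + 1 lost the rise of Stra6 from day 3 to day 5 (0.15 on that scale), where its FPKM lay well under 1. The replicate numbers did not pair the libraries (correlations of same-numbered deviations from -0.070 to 0.053, 0 of 24 over 0.1, and 4 of 24 wound libraries closest to their own number). With the replicate number as a block, 7 of the 9 genes were called on day 3 and 12032 of all genes, and the block changed no call of the 9 genes and moved no count by over 1.5 times. The lowest counts per library among the 9 genes, where relative counting error is largest, were 12 to 26 (Stra6, day 3), 22 to 35 (Aldh1a2, day 10) and 30 to 48 (Stra6, day 5).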
